A study of Caenorhabditis elegans with 8 samples.

Results

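These 4278 regions carried a peak of gain-of-function SKN-1 and no peak of wild-type SKN-1 in Caenorhabditis elegans. They were chosen by merging 4 deposited peak lists wherever peaks shared at least 1 bp, and by keeping the merged regions with a peak in at least 1 gain-of-function list and in neither wild-type list. This left 4278 of 35430 merged regions, or 12.1%. The lists themselves chose the regions, so their number, width and fold enrichment are descriptions with no test. Of the 4278, 4094 had a peak in the first gain-of-function list (GF 1) alone, 149 in the second (GF 2) alone, and 35 in both, which is 0.0988% of all merged regions.

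Chromatin was precipitated from whole animals with a Chromotek reagent that binds green fluorescent protein (GFP). The WT samples carried SKN-1 tagged with GFP, and the GF samples carried the tagged form with the gain-of-function allele, written SKN-1gf(lax188) in the genotype label. All animals were grown at 20°C on plates with streptomycin and OP50 bacteria, had not starved for at least 3 generations and were cross-linked with 1.1% formaldehyde, and the labels give no age, no sex and no construct for the tag. Each genotype had 2 samples with antibody and 2 without, and the 4 samples without antibody have no peak list and were not analysed here. Each list came from 1 sample, and the labels do not say whether samples were separate cultures. Read numbers are not part of the lists, and the depth of each sample is therefore unknown. The lists were of unequal length: GF 1 had 25007 peaks and GF 2 had 905, while WT 2 had 29541 and WT 1 had 15943. A missing peak is a missing call at the authors' threshold, a q of about 0.05 in each list, and was not read as missing binding. The peak names in the WT 2 list carry the replicate 1 label, so its identity rests on the sample record.

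SKN-1 is the worm relative of the mammalian Nrf transcription factors. It is known for switching on detoxification, glutathione and proteasome genes under oxidative stress, and for its roles in the intestine and in the ASI pair of sensory neurons. WDR-23 is known to hold SKN-1 down by directing it to degradation, and gain-of-function alleles such as lax188 are known to keep the stress programme active without stress.

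The regions were mostly weak and narrow entries of the GF 1 list. In GF 1 they held 4129 peaks, 16.5% of that list, with a median fold enrichment over the caller's background of 1.45, against 1.57 for the 20878 GF 1 peaks in regions that also held a WT peak. In GF 2 they held 184 peaks, 20.3% of the list, with a median fold of 1.46 against 1.53. The median width was 195 bp in GF 1 and 215.5 bp in GF 2, against 303 and 282 bp for the peaks shared with WT. These peaks had to share no base with a WT peak, so their width is not independent of the rule. The best of these peaks ranked 22nd by fold in each GF list, and 22 of the 907 GF 1 peaks that rank among its strongest 905, ties included, belonged to these regions. Only 37 GF 1 peaks and 2 GF 2 peaks here reached a fold of 2, or 0.896% and 1.09%, against 8.04% and 7.63% of the peaks shared with WT.

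The share of peaks lacking a partner in the other genotype was lower at higher fold in GF 1. It was 37.6% of GF 1 peaks under a fold of 1.3 (Wilson 95% interval 34.1 to 41.3), 16% between 1.5 and 1.6 (15 to 17) and 1.81% between 2 and 2.5 (1.23 to 2.65). Above a fold of 2.5 it was 3.63% (2.09 to 6.23). WT 2 peaks without a GF partner ran the same way, from 57.2% under 1.3 to 2.48% between 2 and 2.5, with 10.8% above 2.5. Intervals here and below cover counting error over peaks, regions or genes of these lists only.

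**Figure D1:**
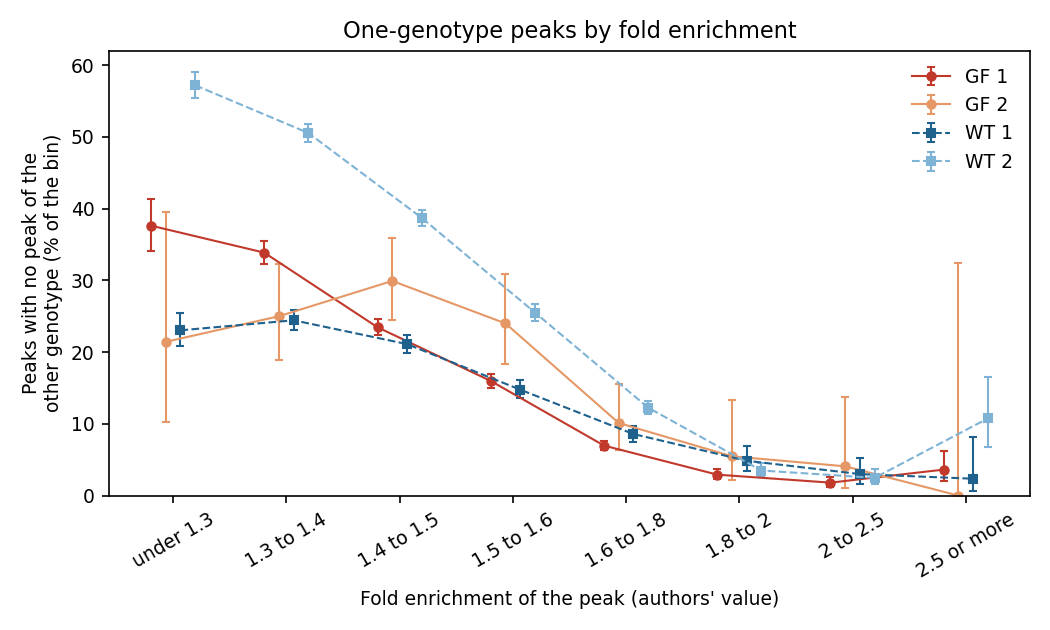
Share of the peaks of each list that have no peak of the other genotype (vertical axis, percent of the bin) by the authors' fold enrichment (horizontal axis, bins). Points are shares and bars Wilson 95% intervals over peaks. In GF 1 the share is 37.6% under a fold of 1.3 and 1.81% between 2 and 2.5, and WT 2 runs from 57.2% to 2.48% over the same bins.

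Membership rested on single lists. Without WT 2 the same rule gave 13027 regions, without WT 1 it gave 5275, without GF 1 196 and without GF 2 4131. GF 2 seldom held a peak at these regions: 35 of their 4129 GF 1 peaks (0.848%, 0.610 to 1.18) lay in a region with a GF 2 peak, against 615 of the 20878 shared with WT (2.95%, 2.72 to 3.18). Of the 184 GF 2 peaks here, 19% (14 to 25.3) lay in a region with a GF 1 peak, against 87.8% (85.2 to 90) of those shared with WT. A reciprocal overlap of 50% as the condition for sharing raised the number of regions to 7596.

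Gaps to WT peaks are descriptions, since the share expected for any position of the genome was not computed. The median gap to the nearest WT peak was 899.5 bp, and 1362 regions (31.8%, 30.5 to 33.2) lay within 500 bp. The share within 500 bp was 15.9% without WT 2. Within 1000 bp there were 2292, of which 615 had WT peaks within that distance on both sides. Farther than 5000 bp were 225. For the 11125 regions with WT peaks only, the median gap to the nearest GF peak was 1228 bp, and 22.9% lay within 500 bp. The region just inside the rule with the smallest gap, 3 bp, lay in the DnaJ-family chaperone gene dnj-20 on chromosome II (9617987 to 9618267), with a GF 2 fold of 1.64. The next ones lay by ttc-5 on chromosome I (4 bp, GF 1 fold 1.52) and in the P-glycoprotein transporter gene pgp-1 on chromosome IV (7 bp, 1.65). The pgp-1 region lies at the tRNA gene K08E7.t1. Just outside the rule, GF 1 and WT peaks shared 1 bp at tat-1 on chromosome III, with folds of 1.49 in GF 1 and 1.49 in WT 2, and 2 bp at lst-2 on chromosome X, with 1.42 in GF 1 and 1.25 in WT 1. The region with 2 bp shared next to CC8.2 on chromosome IV had folds of 1.44 in GF 1 and 1.36 in WT 2. The 3 GF folds just inside the rule, with the GF 2 value at dnj-20 among them, were higher than the 3 GF 1 folds just outside it.

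The strongest GF 1 peaks among these regions sat at genes for small non-coding RNAs. Of the 37 GF 1 peaks with a fold of at least 2, 22 (59.5%, 43.5 to 73.7) had their summit within 150 bp of a gene annotated as a tRNA, small nuclear RNA (snRNA), small nucleolar RNA (snoRNA) or microRNA. There were 9 peaks at snRNA genes, 6 at snoRNA genes, 6 at tRNA genes and 1 at a microRNA gene. snRNAs form the splicing machinery, snoRNAs guide the modification of other RNAs, and tRNAs carry amino acids to the ribosome. The share was 81 of 1679 (4.82%, 3.90 to 5.96) for GF 1 peaks of that strength shared with WT. In the other lists, peaks of that strength shared between the genotypes gave 12 of 55 in GF 2 (21.8%, 12.9 to 34.4), 26 of 968 in WT 2 (2.69%, 1.84 to 3.91) and 10 of 439 in WT 1 (2.28%, 1.24 to 4.14). Among WT peaks of that strength with no GF partner it was 0 of 13 in WT 1 and 0 of 38 in WT 2, which allow up to 22.8% and 9.18% by the Wilson interval. Of the 2 GF 2 peaks of that strength in regions without a WT peak, 0 lay at such a gene. This annotation was looked at after the values of these regions had been seen.

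The share at small RNA genes was lower at lower fold within these regions. It was 34 of 471 GF 1 peaks between 1.6 and 2 (7.22%, 5.21 to 9.92) and 35 of 3621 below 1.6 (0.967%, 0.696 to 1.34), the latter against 0.641% (0.511 to 0.804) of such peaks shared with WT. Width, itself tied to the rule, moves with this result. Of the 37 peaks, 33 were under 300 bp, against 229 of the 1679 shared with WT (13.6%). Among peaks under 300 bp the share at small RNA genes was 60.6% here (20 peaks) and 14.4% (33 peaks) in those shared with WT. Without WT 2, the rule gave 132 GF 1 peaks of fold 2 or more, of which 43.9% lay at small RNA genes, and without WT 1 it gave 45, of which 53.3% did. Where a GF peak counted as shared only at a reciprocal overlap of 50%, the share was 28.4% of 95.

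**Figure D2:**
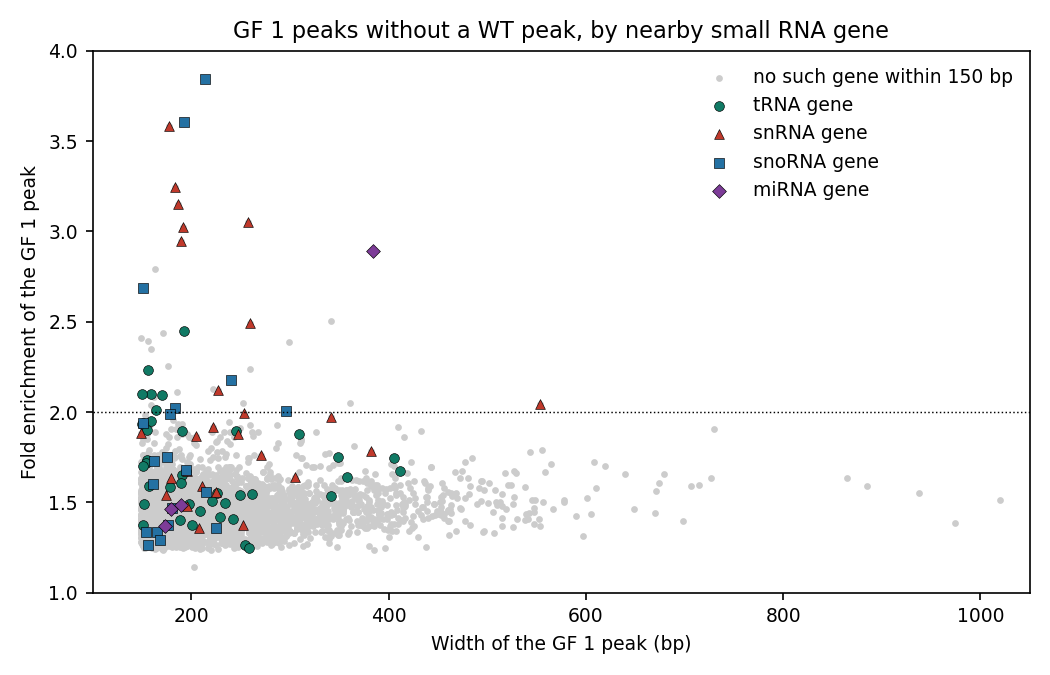
Each point is one of the 4129 GF 1 peaks in regions without a WT peak, by its width (horizontal axis, bp) and the authors' fold enrichment (vertical axis, linear). Coloured symbols mark a summit within 150 bp of a tRNA, snRNA, snoRNA or microRNA gene, and the dotted line marks a fold of 2. Of the 37 peaks with a fold of at least 2, 22 carry a coloured symbol and 33 are under 300 bp wide.

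The highest GF 1 fold, 3.84, lay at the snoRNA gene F25H2.15 on chromosome I (10565310 to 10565629), a region also in GF 2 with a fold of 1.61. Its protein-coding neighbours are ubc-25, a ubiquitin-conjugating enzyme gene, and pas-5, which encodes a core subunit of the proteasome. The next peak, at 12491243 to 12491435 on chromosome V, had a GF 1 fold of 3.61 at the snoRNA gene W04D2.7, within the innexin gap junction gene inx-11. The third had a fold of 3.58 at the snRNA gene R05D7.6 on chromosome I (12173634 to 12173810). GF 2 had no peak at these last regions, and the nearest WT peaks were 2830 and 439 bp away. Thus the leading regions are named by a small RNA gene as much as by the protein-coding gene beside or around it.

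A group of 3 neighbouring snRNA genes at F56H6.2 on chromosome I gave 3 separate regions. F56H6.16 had a GF 1 fold of 3.03 (12285855 to 12286046), F56H6.14 of 3.15 (12286679 to 12286865) and F56H6.15 of 2.95 (12288128 to 12288317). The closest WT peak to the 3 regions was 191 bp away. Other snRNA genes among the strongest were Y47H9A.2 on chromosome I, with a fold of 3.25, and F08H9.10 on chromosome V, with a fold of 3.05 beside the chemoreceptor gene srz-97 and the small heat shock genes hsp-16.20 and hsp-16.21. The microRNA gene mir-8196.2, inside the peroxisome biogenesis gene prx-1 on chromosome X, had a fold of 2.89. The snoRNA gene ZK994.7 inside the peroxidasin gene pxn-1 on chromosome V (8500503 to 8500653) had a fold of 2.69, with the nearest WT peak 13812 bp away. None of these had a GF 2 peak.

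SmY RNA genes, which encode nematode snRNAs linked to trans-splicing, were among these small RNA genes. Of 12 SmY genes, 7 had a region of this kind within 150 bp, 3 had a region with peaks of both genotypes and 2 had none. The GF 1 folds at the 7 were 2.49 at smy-8, 1.89 at smy-1, 1.88 at smy-10, 1.67 at smy-9, 1.64 at smy-12, 1.54 at smy-4 and 1.48 at smy-6. smy-8, smy-9 and smy-10 are neighbours on chromosome IV (13600790 to 13602325), and GF 2 had no peak at any of the 7. At smy-3, smy-7 and smy-11, which also had WT peaks, the GF 1 folds were 2.15, 1.54 and 1.92 and the WT 2 folds 1.56, 1.53 and 1.49. There was also a GF 2 peak at smy-3 (1.85) and a WT 1 peak at smy-7 (1.38). Of 19 SL2 spliced leader genes, whose product is joined to the start of downstream messages of operons, 14 had peaks of both genotypes, 2 were in GF 1 alone (sls-2.17 with 2.12 and sls-2.11 with 2.04) and 3 had no region.

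Over all short genes of these types, 100 of 1345 (7.43%) had a region of this kind within 150 bp, against 3.42% of 7596 short genes of the annotation's general non-coding class. The order was the reverse at regions of both genotypes, with 219 of 1345 (16.3%) against 1633 of 7596 (21.5%). It was also the reverse at regions of WT peaks only, with 82 of 1345 against 759 of 7596. GF 1 had a summit at 325 of the 1345 and at 1922 of the 7596. Over these types together, a higher share than in the general class was thus seen only at regions without a WT peak. Taken alone, snRNA genes had a higher share at regions of both genotypes too (37.2%, 29.4 to 45.8, against 21.5%). The 129 snRNA genes gave 26 with a region that lacked a WT peak (20.2%, 14.1 to 27.9). Regions of both genotypes lay at 48 of them and a region of WT peaks only at 1. The 612 tRNA genes gave 49 (8.01%, 6.11 to 10.4), with 55 and 39 at the other kinds of region, the 346 snoRNA genes 21 (6.07%) with 76 and 29, and the 258 microRNA genes 4 (1.55%) with 40 and 13. For tRNA genes the numbers differed by chromosome, 31 of 276 on X (11.2%, 8.03 to 15.5) and 18 of 336 on the autosomes (5.36%, 3.42 to 8.31). GF 1 had a summit at 44 X-linked tRNA genes, WT 1 at 17, WT 2 at 10 and GF 2 at 2. At autosomal tRNA genes these numbers were 61 for GF 1, 9 for WT 1, 68 for WT 2 and 5 for GF 2. WT 1 thus had more of its tRNA summits on X and WT 2 more on the autosomes. The cause of the difference between X and autosomes was not tested. Some genes of these families have near-identical copies, and the treatment of reads that match several copies is not stated in the labels. The copy that a peak at such a gene belongs to is therefore uncertain.

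Of the 37 strongest GF 1 peaks, 15 had no such gene within 150 bp. They were led by a region at tald-1, the transaldolase gene of the pentose phosphate pathway (chromosome IV, 4389273 to 4389435, GF 1 fold 2.79). A second region, just before it at 4388859 to 4389110, lay at tald-1 and the ribosomal protein gene rpl-7A with a fold of 2.05. Others were in the ligand-gated ion channel gene lgc-40 on chromosome X, with a fold of 2.51, at fre-1 on chromosome V, with 2.44, and near pes-10 on chromosome II, with 2.41. The region at fip-1 on chromosome III, with 2.45, held the tRNA gene F22B7.t1, and the one nearest to Y45F10B.59, with 2.49, is that of smy-8. The region at W04G5.3 is that of Y47H9A.2.

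The regions found by both GF lists were of modest fold in each. Over these 35, the median fold was 1.54 in GF 1, with a range of 1.26 to 3.84, and 1.46 in GF 2, with a range of 1.35 to 1.96. GF 1 had the higher fold at 21 and GF 2 at 14. The values differed by at most 0.1 at 16 regions and by more than 0.2 at 6. The 35 lay closer to WT peaks than the 4278 as a whole, with a median gap of 406 bp against 899.5 bp and 60% (43.6 to 74.4) against 31.8% within 500 bp. Without WT 2 as a condition there were 126 such regions, and without WT 1 49.

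**Figure D3:**
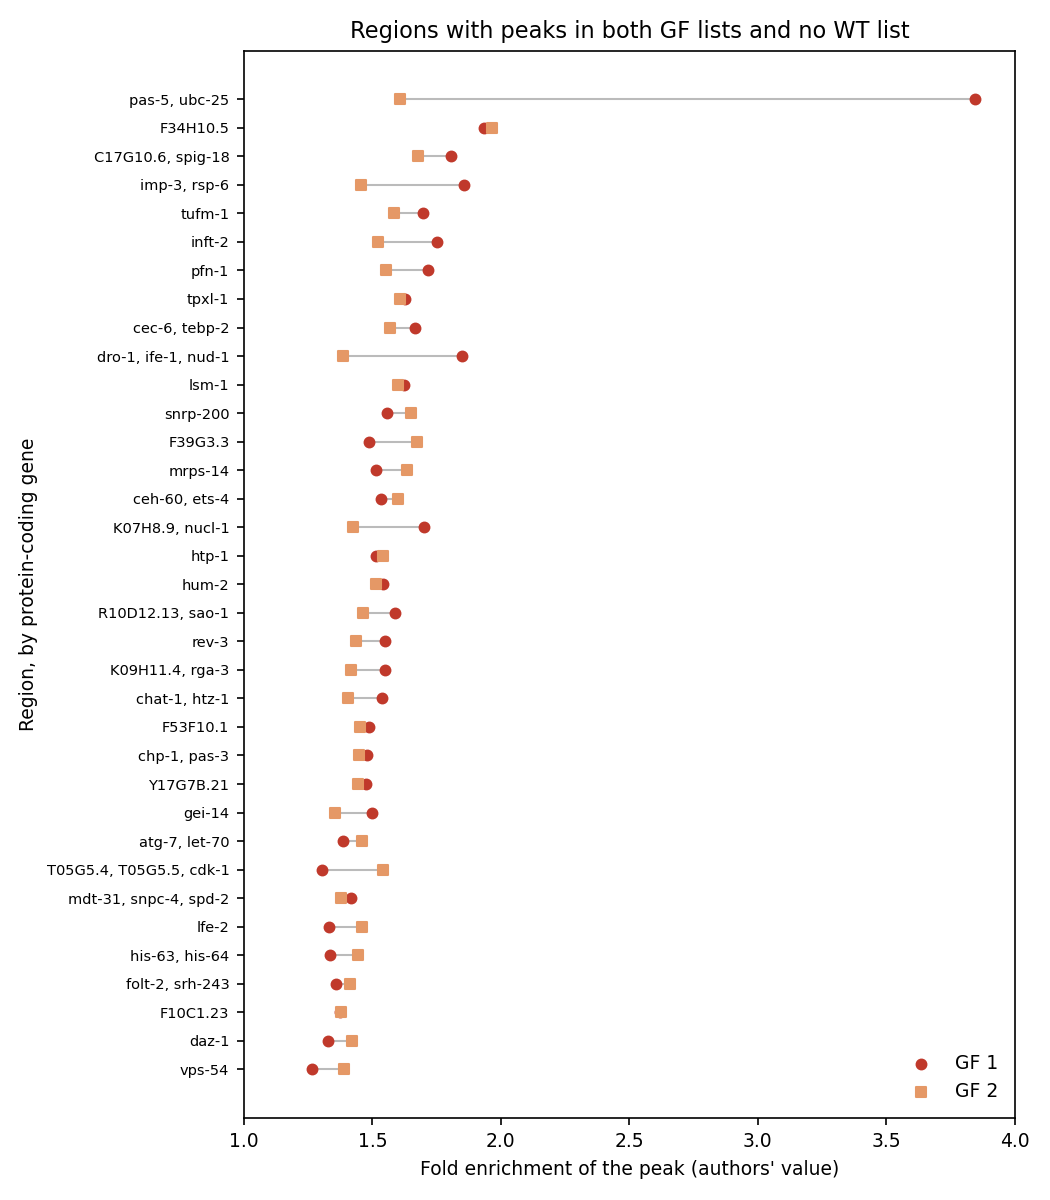
The 35 regions with a peak in both GF lists and none in a WT list, named by protein-coding gene (vertical axis) and ordered by mean fold, with the authors' fold enrichment (horizontal axis, linear) in GF 1 (circles) and GF 2 (squares) joined by a line. All but the first region, at pas-5 and ubc-25, lie below a fold of 2 in both lists.

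Of the 35, some lay at genes of RNA processing, here grouped by known role after their values were seen and with no fixed list or test. The region at rsp-6, which encodes an SR protein of splicing, and imp-3, an intramembrane protease gene, had folds of 1.85 in GF 1 and 1.45 in GF 2. The one at lsm-1, an Sm-like protein gene of messenger RNA decay, had 1.62 and 1.6 (chromosome II, 11125910 to 11126339). That at snrp-200, a spliceosomal helicase gene, had 1.56 and 1.65 (chromosome II, 12726824 to 12727065). A region with folds of 1.70 and 1.42 lay at nucl-1, which encodes nucleolin, on chromosome IV. One with 1.42 and 1.38 lay at snpc-4, a subunit gene of a complex needed for the transcription of snRNA genes, with spd-2 and mdt-31. Nearby WT peaks were common here, at 54 bp for rsp-6, 292 bp for lsm-1 and 657 bp for snrp-200.

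Others lay at genes of translation and protein turnover. tufm-1, the mitochondrial elongation factor Tu gene, had folds of 1.70 in GF 1 and 1.58 in GF 2 (chromosome III, 2811489 to 2811742), with no WT peak within 1804 bp. The mitochondrial ribosomal protein gene mrps-14 had 1.51 and 1.63 on chromosome II (10242744 to 10242979). ife-1, a cap-binding translation initiation factor gene, shared a region with nud-1 and dro-1 on chromosome III, with 1.85 and 1.39. Among proteasome genes, pas-3 with chp-1 had 1.48 and 1.45 on chromosome I, beside the region at pas-5 described above. atg-7, an autophagy gene, and let-70, a ubiquitin-conjugating enzyme gene, shared a region with 1.38 and 1.46, with a WT peak 57 bp away.

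Another group, by the same sorting, lay at chromosome and germline genes. The region at tebp-2, a telomere-binding protein gene, and cec-6 on chromosome IV had folds of 1.67 in GF 1 and 1.57 in GF 2. tpxl-1, which encodes an activator of the mitotic kinase Aurora A, had 1.63 and 1.61 on chromosome I. htp-1, a meiotic chromosome axis gene, had 1.51 and 1.54, htz-1, a variant histone gene, had 1.54 and 1.4, and the histone genes his-63 and his-64 had 1.34 and 1.44. The germline RNA-binding protein gene daz-1 had 1.33 and 1.42, and cdk-1, the mitotic kinase gene, had 1.3 and 1.54.

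The rest of the 35 included cytoskeletal and transcription factor genes. The profilin gene pfn-1 had folds of 1.72 in GF 1 and 1.55 in GF 2, and the formin gene inft-2 had 1.75 and 1.52, with the tRNA gene F15B9.t1 at its summit. ets-4, an ETS-family transcription factor gene, and the homeobox gene ceh-60 shared a region on chromosome X with 1.53 and 1.6. F34H10.5, also on chromosome X (9637819 to 9638000), had 1.94 and 1.96, at the tRNA gene F34H10.t1. The region at spig-18 and C17G10.6 had 1.8 and 1.68, and that at F39G3.3 had 1.49 and 1.67. The remaining regions lay at hum-2, sao-1 with R10D12.13, rev-3 with the tRNA gene Y37B11A.t2, rga-3 with K09H11.4, F53F10.1, Y17G7B.21, gei-14, lfe-2, folt-2 with srh-243, F10C1.23 and vps-54. The 20 regions from nucl-1 downward in mean fold had GF 1 folds of 1.26 to 1.70 and GF 2 folds of 1.35 to 1.54. Of the 35, 4 had a small RNA gene of the types above within 150 bp.

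The 149 regions found by GF 2 alone were led by weak to moderate peaks. The highest, with a GF 2 fold of 2.3, lay nearest to cyp-13A8, a cytochrome P450 gene, on chromosome II (9809453 to 9809611), and the second, with 2.24, at F09E5.7 on the same chromosome (5353768 to 5353931). These were followed by Y106G6E.8 with 1.94, pept-3 with 1.90, B0294.3 with 1.81 and ftt-2, which encodes a phosphoprotein-binding adaptor, with 1.77. The pept-3 region lies at the tRNA gene F56F4.t2. The next were pdtf-1 with 1.74 and a region at taap-1 and M05D6.5 with 1.71. wdr-23, which encodes the repressor of SKN-1 described above, and aex-1 had 1.64 (chromosome I, 7601859 to 7602109). The tenth, at atp-4, an ATP synthase subunit gene, and T05H4.11, also had 1.64.

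Both wdr-23 and skn-1 itself also had peaks in WT. At wdr-23 a second region with a GF 2 peak only had a fold of 1.43, while neighbouring regions held a WT 2 peak of 1.5 and, at another site, WT 2 and GF 1 peaks of 1.44 and 1.52. At skn-1 on chromosome IV, 1 of 7 regions in or at the gene had a GF 1 peak only (5650789 to 5650991, fold 1.58), at a gene end. Of the other 6, 2 had WT peaks only and 4 had peaks of both genotypes.

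The place of these regions in the gene differed by list. A summit 1000 bp outside to 200 bp inside either end of a protein-coding gene was found at 1506 of the 4278 regions (35.2%, 33.8 to 36.6), at 30.9% (30.2 to 31.5) of the regions with peaks of both genotypes and at 35.2% (34.3 to 36.1) of those with WT peaks only. A further 2132 regions (49.8%) lay deeper inside a gene, and 640 (15%) in neither place. Regions of both GF lists lay at a gene end in 28 of 35 cases (80.0%, 64.1 to 90), and those of GF 2 alone in 98 of 149 (65.8%, 57.8 to 72.9). The short GF 2 list as a whole had 61.7% of its peaks at a gene end (58.4 to 64.8), and GF 1 31.3% (30.7 to 31.9). Without GF 1 the share at gene ends was 69.9%.

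On the autosomes, whose gene-rich middles and repeat-rich arms differ in C. elegans, the regions lay in the chromosome middle more often than shared ones. The middle is here the central of 3 equal sections of the span covered by peaks. Of 3241 autosomal regions, 35% (33.4 to 36.6) had their summit there, against 24.1% (23.5 to 24.8) of the regions with peaks of both genotypes and 37.7% (36.8 to 38.7) of those with WT peaks only. Regions of WT peaks only thus had a share above that of the GF regions. GF 2 peaks stood apart again, with 59.6% (52.2 to 66.7) in the middle for the 171 autosomal ones without a WT peak and 45.8% (42.4 to 49.2) for that whole list.

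Chromosome X held 1037 of the 4278 regions (24.2%, 23 to 25.5), against 15.1% (14.6 to 15.6) of the regions with peaks of both genotypes and 13.9% (13.3 to 14.6) of those with WT peaks only. Within these regions the share was 25% for GF 1 alone and 7.38% (4.17 to 12.7) for GF 2 alone, and 2 of the 35 in both lists lay on X. The difference from the shared regions held in each fold class of GF 1, with 23% against 16.2% under 1.4, 25.7% against 16.3% from 1.4 to 1.6 and 26.4% against 13% above. It was 24.1% without the regions at small RNA genes.

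The X share moved with the WT 2 list. In the WT 1 list 21.8% of the peaks lay on X and in the WT 2 list 12%, beside 16.5% of the GF 1 list and 7.07% of the GF 2 list, so that each GF list had a lower X share than the WT list of its number. Regions with a WT 1 peak but no WT 2 peak had X shares of 53.6% with a GF 1 peak and 44.4% without one. Regions with a WT 2 peak but no WT 1 peak had 7.62% and 7.47%. Without WT 2, the rule gave an X share of 13%, without WT 1 29.6%, and without GF 1 6.63%. With WT 2 and GF 1 shortened to the length of WT 1 the share was 16.4%. A difference between genotypes therefore cannot be told apart from a difference between the WT lists here.

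**Figure D4:**
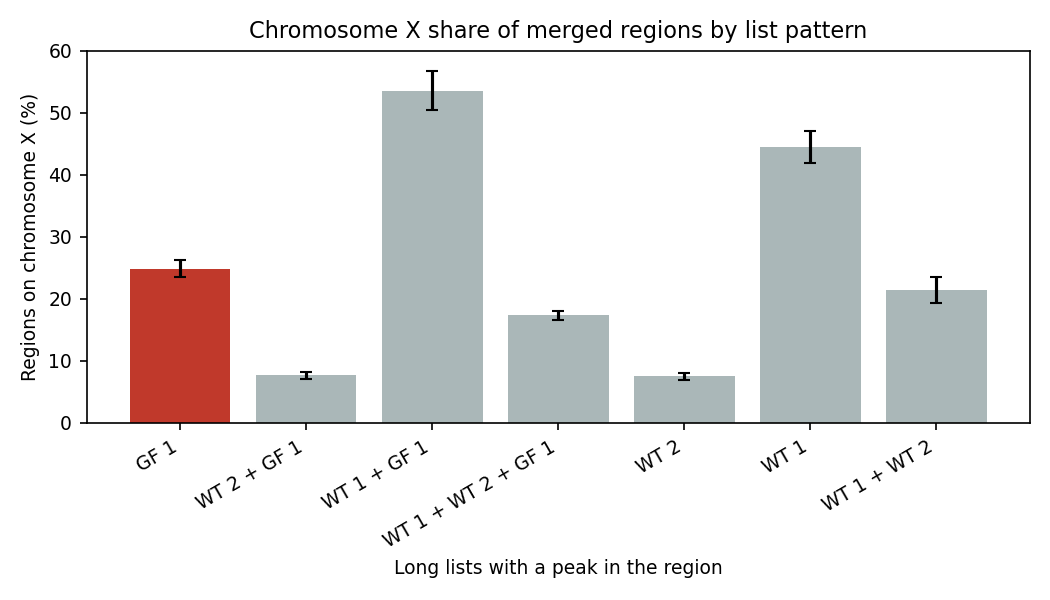
Share of merged regions on chromosome X (vertical axis, percent, bars from 0) by the long lists that hold a peak in them (horizontal axis), without regard to GF 2. Bars carry Wilson 95% intervals over regions. The bar of GF 1 alone stands at 24.8%. Regions of GF 1 and WT 2 without WT 1 stand at 7.62%, and those of GF 1 and WT 1 without WT 2 at 53.6%. Regions of GF 1 and both WT lists stand at 17.3%.

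The widest regions and the genes with the most of them were often on chromosome X. The widest, 1020 bp, lay in the innexin gene inx-1 on chromosome X (6948559 to 6949578, GF 1 fold 1.51). The next lay in lrp-1 on chromosome I (974 bp, 1.39), a lipoprotein receptor family gene, and then in chts-1 (938 bp, 1.55), the intermediate filament gene ifa-3 (885 bp, 1.59) and F54G2.1 (865 bp, 1.64), all on X. The nuclear hormone receptor gene nhr-27 on X, of 102.7 kb, held 8 regions, with GF 1 folds of 1.29 to 1.76, and 29 regions with a WT peak. him-4, which encodes the extracellular matrix protein hemicentin, held 7 beside 18 with a WT peak, and hmr-1, the cadherin gene, 7 beside 26. F39C12.1 held 6 beside 10, and C08G9.2, of 8.8 kb, held 5 beside 5, a number that F54G2.1, plc-1 and the titin gene ttn-1 also reached. Of the 4006 genes with a region inside or at an end, 3419 had 1.

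In some short genes several regions lay together. F02E8.4 on chromosome X had 4 regions and no region with a WT peak, with GF 1 folds of 2.04, 1.4, 1.48 and 1.35 from 4453208 to 4456467. Y17D7C.2 on chromosome V had 4 regions of GF 2 alone, with folds of 1.33, 1.5, 1.44 and 1.44 from 18717347 to 18721071, beside 2 regions with a WT peak. These genes, of 3.2 and 4.1 kb, were picked out after their values were seen, as was lars-1 on chromosome III, the leucyl-tRNA synthetase gene, whose 4 regions had GF 1 folds of 1.54, 1.39, 1.3 and 1.33.

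Among 19971 protein-coding genes, 1876 (9.39%) had a region of this kind at an end, against 32.6% with a region of both genotypes and 22% with a region of WT peaks only. Of the 1876, 861 (45.9%) also had a WT summit at an end, against 50.2% of all genes, so the region was often not the gene's only peak. Regions of both GF lists lay at the ends of 47 genes (0.235%), of which 27 also had a WT summit at an end. Gene lists are given by their counts beside the 9.39%, and no list was tested.

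The detoxification, antioxidant and heat shock lists had few genes with such regions, mostly with intervals that hold the background. Of 32 detoxification and glutathione genes, 2 had a region at an end (6.25%, 1.73 to 20.1), the thioredoxin reductase genes trxr-1 with a GF 1 fold of 1.67 (chromosome IV, 7011070 to 7011273) and trxr-2 with 1.39. Of 49 glutathione S-transferase genes there were 3 (6.12%, 2.1 to 16.5), with gst-27 and gst-28 sharing 1 region of fold 1.68 and gst-42 at 1.4. The shared region lies at the snoRNA gene Y53F4B.48. Of 67 UDP-glucuronosyltransferase genes there were 5, led by ugt-35 (1.51), and of 74 cytochrome P450 genes 1, cyp-33D3 (1.38). The cytochrome P450 share of 1.35% had an interval of 0.239 to 7.27, below the background. This list was also below all genes in regions of both genotypes (24.3% against 32.6%) and in regions with any WT peak (36.5% against 48.3%). Among 11 antioxidant enzyme genes only the superoxide dismutase gene sod-5 had one (1.32). None of the 32 genes of the heat shock and unfolded protein response list had one, which allows up to 10.7% by the Wilson interval. That list leaves out the small heat shock genes hsp-16.20 and hsp-16.21. The region at F08H9.10 described above, with a GF 1 fold of 3.05, lies at an end of both. Of 34 genes of SKN-1 regulation there were 4, among them wdr-23 and skn-1 as above and akt-1 (1.34), a kinase gene of insulin signalling, and each of the 4 also had a WT summit at an end.

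The highest share of any list was that of splicing genes. Of 40 splicing factor and snRNP genes, 9 had a region at an end (22.5%, 12.3 to 37.5), 2 of them in both GF lists, led by rsp-6, lsm-1, rsp-7 (1.59) and rsp-3 (1.58). The list counts lsm-1, described above as a gene of messenger RNA decay. The same list was also above all genes in regions of both genotypes (45% against 32.6%) and in regions with any WT peak (60% against 48.3%). Of 32 proteasome subunit genes, 5 did (15.6%, 6.86 to 31.8), among them pas-5 and pas-3 in both GF lists, and rpn-2 and rpt-2 with GF 2 folds of 1.46 and 1.43. Of 42 respiratory chain genes, 7 did (16.7%, 8.32 to 30.6), led by atp-4, nuo-3 (1.59), nuo-4 (1.54) and asg-1 (GF 2, 1.53). Among 37 translation factor genes 5 did, led by ife-1, tufm-1, eif-3.C (GF 2, 1.52) and eef-1A.2 (1.49). In the proteasome, respiratory chain and translation factor lists the interval holds the background of 9.39%, and these lists too were above all genes in regions of both genotypes (43.8%, 47.6% and 43.2%). Of 81 ribosomal protein genes, 8 did (9.88%), led by rpl-7A, rps-21 (1.64), rpl-42 (1.54) and rpl-26 (1.44), while 68 had a region of both genotypes.

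**Figure D5:**
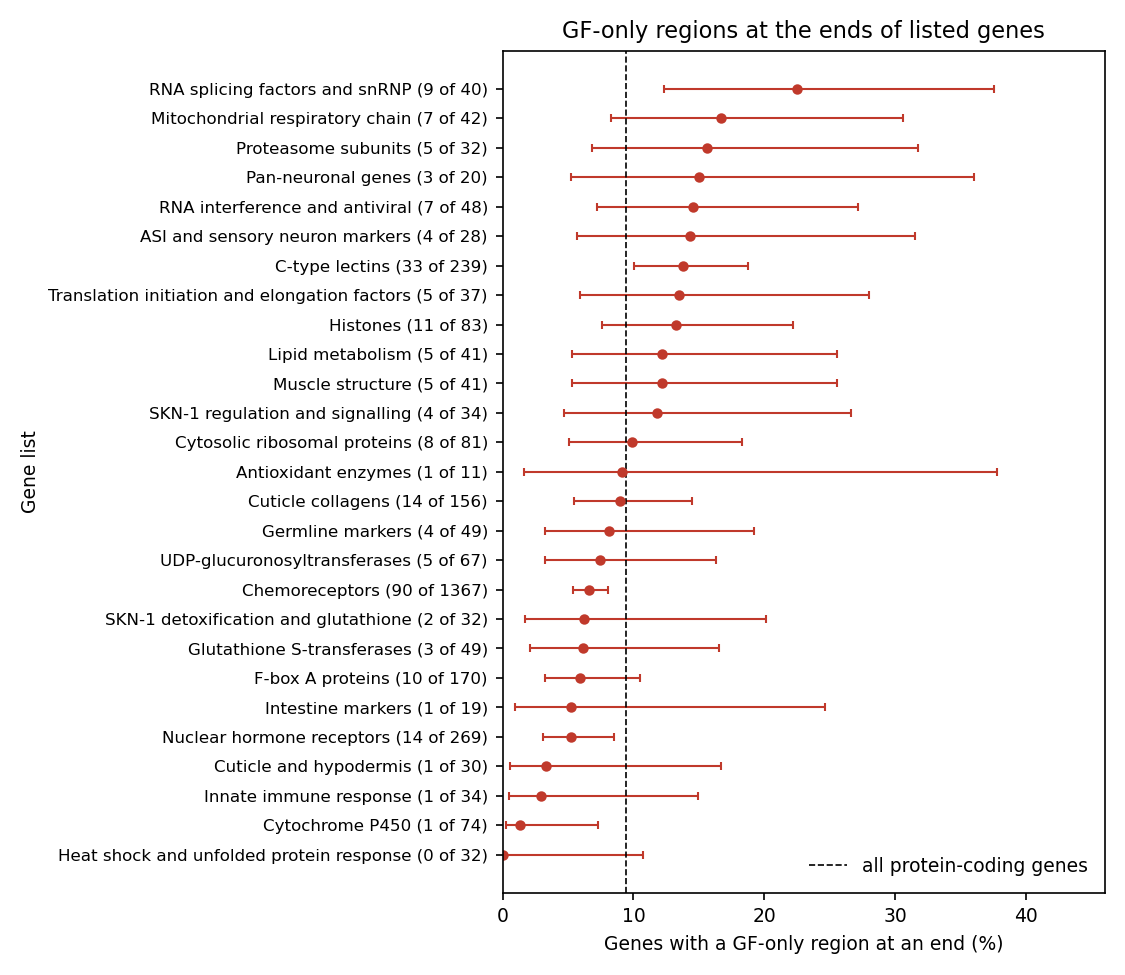
Share of the genes of each list with a region without a WT peak at a gene end (horizontal axis, percent), with the number of such genes beside the name of the list (vertical axis). Points are shares, bars Wilson 95% intervals over genes, and the dashed line is the 9.39% of all protein-coding genes. The highest share is 22.5% for splicing factors and snRNP, and the heat shock list, which leaves out hsp-16.20 and hsp-16.21, has 0 of 32.

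The intervals of the RNA interference, lipid and histone lists hold the background as well. Of 48 RNA interference and antiviral genes, 7 had a region (14.6%, 7.25 to 27.2), led by nrde-2 (1.74), pals-22 (1.68), mut-16 (1.65) and eri-1 (1.48). Of 41 lipid metabolism genes, 5 did (12.2%, 5.32 to 25.5), led by the vitellogenin genes vit-5 (1.74) and vit-3 (1.64), the acetyl-CoA carboxylase gene pod-2 (1.6) and pmt-2 (1.48). Of 83 histone genes, 11 did (13.3%, 7.56 to 22.2), led by his-31 (1.6), his-65 and his-66 in 1 shared region (GF 2, 1.55) and htz-1. Neighbouring histone genes share regions, so these counts are not independent.

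Large gene families went to either side. Of 239 C-type lectin genes, 33 had a region (13.8%, 10 to 18.8), led by clec-208 (1.64), clec-183 (1.62) and the pair clec-82 and clec-83 (1.56). The region of that pair lies at the snoRNA gene Y54G2A.74. Of 1367 chemoreceptor genes, 90 did (6.58%, 5.39 to 8.02), led by srz-97, srx-88 (2.0), srt-33 (1.99) and str-73 (1.71). The first 3 of these lie at snRNA or snoRNA genes. Of 269 nuclear hormone receptor genes, 14 did (5.20%, 3.13 to 8.55), led by nhr-198 (1.59), nhr-121 (1.55), nhr-176 (1.54) and nhr-91 (1.54). Of 156 col genes 14 did (8.97%), led by col-8 (1.89), col-163 (1.72), col-104 (1.67) and col-88 (1.53), and of 170 F-box A genes 10 did (5.88%), led by fbxa-67 (1.63), fbxa-14 and fbxa-15 in 1 region (1.55) and fbxa-184 (1.47). For regions of both genotypes, C-type lectins (51.9%) also lay above and chemoreceptors (26.4%) below the 32.6% of all genes.

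Markers of tissues gave small counts. Of 28 ASI and sensory neuron genes, 4 had a region, at ets-5 (1.68), ocr-2 (1.53), flp-2 (1.43) and mec-3 (1.38). Of 20 pan-neuronal genes there were 3, at unc-10 (1.49), unc-119 (1.49) and the synaptobrevin gene snb-1 (GF 2, 1.44). Of 41 muscle genes there were 5, led by the troponin gene tni-3 (1.62), mlc-1 (1.46), unc-97 (1.45) and the actin gene act-1 (1.44). Of 49 germline genes there were 4, at pgl-3 (1.62), htp-1, him-3 (GF 2, 1.49) and glh-2 (1.41). Of 19 intestine genes there was 1, the gut esterase gene ges-1 (1.47), of 30 cuticle and hypodermis genes 1, rol-6 (1.32), and of 34 immune genes 1, irg-1 (1.54). Folds in these paragraphs are GF 1 values unless GF 2 is named.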

How the data were processed

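Per the submitters' processing notes, the tools were MACS2 2.2.7.1, SAMtools 1.10, BWA 0.7.17 and Trim Galore 0.6.4, and the build was ce10. Their settings, the control given to the caller and the treatment of reads with several matches are not given in the sources used here. The deposited narrowPeak lists, 1 per precipitated sample, give for each peak a fold enrichment (a ratio over background), a -log10 p and q, and a score of about 10 times the deposited -log10 q. Folds are the authors' values without replicate error and were mostly compared within a list. Where folds of different lists stand side by side, they are descriptions, since depth is unknown and no difference was tested. Coordinates are 1-based on the lists' build.

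Peaks were merged with pandas 2.3.3, NumPy 2.4.6 and SciPy 1.17.1 under Python 3.11.15, figures were drawn with matplotlib 3.10.9, and the code was tested on simulated lists. Gaps are bases between edges. The summit of a region is that of its GF peak with the highest fold. Gene names came from RefSeq (WBcel235, another assembly than that of the lists), in a table without strand or transcripts. Genes were matched by position without conversion, so exons were not assigned, and summits were also moved by 100 bp either way. Besides lists given as name patterns, 523 of 528 listed gene names matched. No genome sequence was used, so no sequence is shown.

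Regions were named by genes with an end window at the summit, otherwise by the gene holding it, otherwise by the nearest. Named were all 35 regions of both GF lists (15 with the highest mean fold in full), the first 15 of GF 1 and 10 of GF 2 by fold, the 5 widest, the 5 genes with most regions, up to 4 genes per list (1 gene is not reported here), and 3 regions on each side of the rule. The regions and lists were chosen with earlier results of these data known. No test between genotypes was made, since the lists chose the regions. Alternatives were other overlaps, joining distances, thresholds, list lengths, windows and each list left out.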

Additional observations from a re-analysis of the deposited data

How the results depend on the processing

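The number of regions and most of their properties changed with how sharing was defined and with list length. With a reciprocal overlap of 50%, there were 7596 regions, 80 in both GF lists, with a median GF 1 fold of 1.46, a median width of 215 bp, 28.4% of the strong GF 1 peaks at small RNA genes, 32.1% of regions at gene ends, 19.1% on X and 61.6% within 500 bp of a WT peak. With summits within 100 bp these values were 8539, 116, 1.47, 246 bp, 16.4%, 32.0%, 18.7% and 65.9%. Joining peaks up to 500 bp apart left 2746 regions, 13 in both GF lists, 25.8% on X and, by construction, 0% within 500 bp. At a -log10 q of at least 5 the median fold was 1.59, the width 244.5 bp, the X share 22.1% and the share within 500 bp 22.2%. GF peaks of fold 2 or more gave 39 regions, 0 in both GF lists, a median fold of 2.35, 38.5% at gene ends, 25.6% on X and 12.8% within 500 bp. With WT 2 and GF 1 at the length of WT 1, the fold was 1.56, the width 237 bp, the X share 16.4% and the share within 500 bp 24.7%. With every list at 905 peaks there were 902 regions and 70 in both GF lists, with a fold of 2.32, a width of 630 bp, 17.9% at small RNA genes, 57.4% at gene ends, 6.43% on X and 2.77% within 500 bp. Gene ends held 19.8% where the window was cut to 500 bp outside and 100 bp inside, 59.8% where it reached 2000 and 500 bp, and 85.0% with whole genes. Within 200 and 1000 bp of a WT peak lay 8.27% and 53.6%. The share of strong GF 1 peaks at small RNA genes was 34.9% from a fold of 1.8 and 83.3% from 2.5.

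Leaving out 1 list at a time gave 196 to 13027 regions, 49 to 126 in both GF lists, median folds of 1.45 to 1.48, widths of 195 to 229 bp, 43.9% to 59.5% at small RNA genes, 32.7% to 69.9% at gene ends, 6.63% to 29.6% on X and 15.9% to 43.9% within 500 bp. The lowest number of regions came without GF 1 and the highest without WT 2. The alternatives for the small RNA genes, and the X share without those genes, were chosen after seeing the data. Except where the alternative itself leaves out peaks or widens a window, the cause of a change was not tested. No paired analysis was possible because the regions were chosen by all 4 lists together and the results come from no test.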
